A study of Homo sapiens with 6 samples.

Results

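The genes followed are 10 members of the chemokine and interleukin-1 receptor families, namely the chemokines CXCL1, CXCL2, CXCL3, CXCL5, CXCL8, CXCL16 and CCL20 and the interleukin-1 (IL-1) receptors IL1R1, IL1R2 and IL1RAP. They were chosen by gene name from the deposited expression table, where 10 of 62709 genes carry these names, with no measured value in the rule. Earlier results of these data were known when they were chosen. The cells were HepG2.2.15, a line made from the human hepatoma line HepG2 by giving it the hepatitis B virus genome, which it expresses. Its genotype is labelled wild type, and all cells grew in DMEM with fetal bovine serum, antibiotics and G418. YQSHJD cells received Yinqi Sanhuang Jiedu Decoction, a traditional Chinese herbal medicine given as diluted freeze-dried powder that made up 10% of the medium, and saline cells received the control fluid, both for 3 days. The control is labelled physiological saline, but PBS is what the treatment protocol names. Polyadenylated RNA gave 3 libraries a group, YQSHJD 1 to 3 and saline 1 to 3. The labels do not say whether these came from separate cultures, so the p-values measure only how these samples vary, and that variation may be technical. In bulk RNA of this kind, fewer cells that express a gene and less of its RNA per cell cannot be told apart.

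Chemokines are small secreted proteins that draw leukocytes along a gradient by way of G protein-coupled receptors. CXCL1, CXCL2, CXCL3, CXCL5 and CXCL8 bind the receptor CXCR2, and CXCL8 also CXCR1, and they attract neutrophils. CCL20 attracts lymphocytes and dendritic cells through CCR6. CXCL16 is made as a membrane protein with a chemokine domain on a stalk, from which proteases release a soluble form, and it binds CXCR6. IL-1 signals through IL1R1, which needs the co-receptor IL1RAP to pass the signal to MYD88 and on to the transcription factor NF-kappaB. IL1R2 binds IL-1 but lacks the signalling domain inside the cell, and is known as a decoy receptor. Hepatocytes answer IL-1 with acute phase proteins, and several of these chemokines are classical NF-kappaB targets.

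The promoters show what the family shares in sequence. RefSeq windows of 250 bases before to 50 after a transcription start (GRCh38.p14) were found for 9 of 10 members, 13 windows in all, and CXCL16 was not among them. A scan of both strands for GGAATTTCC, a form of the NF-kappaB site, found it in CXCL1, CXCL2, CXCL3, CXCL5 and CXCL8, and in 0.46% of all 35116 windows of that length. It began at positions -78, -77, -78, -90 and -91 from the start in these genes in that order. The stretches around it follow, with the motif in capitals, because they show the near-identical surroundings in CXCL1, CXCL2 and CXCL3.
CXCL1, chr4:73869290-73869349 plus strand: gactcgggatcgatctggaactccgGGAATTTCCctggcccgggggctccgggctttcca
CXCL2, chr4:74099238-74099297 minus strand: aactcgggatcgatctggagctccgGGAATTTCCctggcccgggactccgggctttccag
CXCL3, chr4:74038733-74038792 minus strand: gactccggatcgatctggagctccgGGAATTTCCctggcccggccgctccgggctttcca
CXCL5, chr4:73998733-73998792 minus strand: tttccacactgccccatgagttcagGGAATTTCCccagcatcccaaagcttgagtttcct
CXCL8, chr4:73740453-73740512 plus strand: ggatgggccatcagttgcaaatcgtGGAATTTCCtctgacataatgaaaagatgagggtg

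Whole windows are shown for IL1R2, the member with the largest difference, and for CCL20, the member that was lower. Other motifs were scanned on both strands. These were the general NF-kappaB consensus, found in 11.27% of all windows, the AP-1 site TGANTCA in 7.71%, the antioxidant response element core TGACNNNGC in 13.35% and the xenobiotic response element core GCGTG in 36.54%. In CXCL1, CXCL2, CXCL3 and CXCL5 the NF-kappaB consensus overlaps GGAATTTCC. Capitals mark the NF-kappaB consensus in the upstream IL1R2 window, the antioxidant core on the other strand in the downstream IL1R2 window, and, in CCL20, the NF-kappaB consensus followed by GCGTG on the other strand.
IL1R2 upstream start, chr2:101991710-101992009 plus strand: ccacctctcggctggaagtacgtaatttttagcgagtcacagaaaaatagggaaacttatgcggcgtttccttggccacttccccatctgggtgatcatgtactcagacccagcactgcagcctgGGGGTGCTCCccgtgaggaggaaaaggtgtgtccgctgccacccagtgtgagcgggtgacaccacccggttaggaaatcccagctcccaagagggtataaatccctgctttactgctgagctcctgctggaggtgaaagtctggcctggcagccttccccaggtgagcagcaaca
IL1R2 downstream start, chr2:101998711-101999010 plus strand: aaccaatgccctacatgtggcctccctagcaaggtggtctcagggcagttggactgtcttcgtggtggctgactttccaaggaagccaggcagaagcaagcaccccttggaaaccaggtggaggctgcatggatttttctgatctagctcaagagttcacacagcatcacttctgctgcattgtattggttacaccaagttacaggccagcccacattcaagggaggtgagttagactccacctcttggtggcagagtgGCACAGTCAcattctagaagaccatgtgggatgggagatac
CCL20, chr2:227813592-227813891 plus strand: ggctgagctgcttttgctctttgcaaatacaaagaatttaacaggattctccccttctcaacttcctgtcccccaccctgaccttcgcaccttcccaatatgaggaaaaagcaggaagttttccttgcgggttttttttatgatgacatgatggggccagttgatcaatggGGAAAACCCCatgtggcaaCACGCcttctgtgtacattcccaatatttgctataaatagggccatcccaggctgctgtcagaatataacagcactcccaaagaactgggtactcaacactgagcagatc

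The upstream IL1R2 window belongs to the start that the deposited table gives for the gene. The CCL20 window does not, since it begins at 227813592 and the deposited gene begins at 227805739. Windows of IL1R1 begin at 102104354 or later, and none holds its deposited start at 102064544. CXCL8 also held TGANTCA, at position -137 from its start. The antioxidant core was also in 1 of 4 windows of IL1R1, at position -10, and GCGTG in another of them, at -158, and in CXCL5, at -183. The IL1RAP window held none of the motifs, which says only that these letters were not in it.

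Expression was read as FPKM, a fragment count divided by gene length in kilobases and by sequencing depth. The length was the one deposited for each gene, 11210 bases for IL1RAP and 2957 bases for IL1R2, for example. Levels of different genes can be compared only as far as these lengths fit the transcripts counted. The libraries held 13370372 to 15066527 reads in genes with YQSHJD and 14829994 to 15615649 with saline. Summed over all genes, FPKM was 422189.4 to 476122.6 with YQSHJD and 341948.0 to 360170.3 with saline. Sums over markers or members are to be read beside these. Hepatocyte markers were abundant, with a summed level of 4395 to 5306 FPKM in YQSHJD libraries and 2915 to 3180 FPKM in saline libraries. Of these 10 markers 6 were called higher, beside 23.3% of all genes tested. Leukocyte markers summed to 207.8 to 223.3 FPKM with YQSHJD and 87.64 to 93.52 FPKM with saline, nearly all of it lysozyme (LYZ). PTPRC, the pan-leukocyte marker CD45, was listed at 0 in every library, CD68 had 3 reads in YQSHJD 1 and none elsewhere, and CD14 had at most 4 reads. Endothelial markers summed to 5.28 to 6.21 FPKM with YQSHJD and 4.88 to 5.42 FPKM with saline, most of it VWF, which was not called. Of these markers PECAM1 was called higher, with 154, 100 and 127 reads in YQSHJD 1, 2 and 3 and 58, 88 and 69 reads in saline 1, 2 and 3 (log2 difference 0.51; limma, adjusted p = 0.0129), while CDH5 had at most 2 reads. Fibroblast markers summed to 13.16 to 13.98 FPKM with YQSHJD and 15.04 to 19.5 FPKM with saline, nearly all of it ACTA2 (log2 difference -0.28, not called; limma, adjusted p = 0.0654). PDGFRB, below the test, had 9, 21 and 8 reads with YQSHJD and 60, 55 and 52 reads with saline, and COL1A1 had at most 5 reads. YQSHJD 1 stood slightly apart, with a mean correlation to its own group of 0.9764 across genes, against 0.9812 to 0.9899 in the other 5 libraries. The mitochondrial ribosomal RNA MT-RNR2 took 4.35% to 5.46% of reads in YQSHJD libraries and 1.67% to 1.7% in saline libraries. The part of these markers and of MT-RNR2 in the differences below was not tested.

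With YQSHJD, the decoy receptor IL1R2 was 7.67-fold higher, CXCL16 was 1.83-fold higher and CCL20 was lower, at 0.68 of the saline level. IL1R1 and CXCL8 did not pass the test. Of the other 5 members, IL1RAP was low in both groups and CXCL1, CXCL2, CXCL3 and CXCL5 were at or near 0. The test was limma on log2(FPKM + 1), two-sided, over the 10966 genes that reached 1 FPKM in 3 or more of the 6 libraries, and a gene was called at a Benjamini-Hochberg adjusted p under 0.05. It reached 5 of 10 members, each of which had over 1 FPKM in all 6 libraries. Of these, 2 were called higher and 1 lower, where 41.4% of all genes tested were called, 23.3% higher and 18.0% lower. Against that background a share of 3 of 5 is no result about the members. The split over all genes, 2559 higher and 1977 lower, became 888 higher and 4650 lower after rescaling to TPM, in which every library has the same summed level, and 1408 higher and 3240 lower after scaling to total reads. The groups did not overlap for 4 of 5 tested members, 3 of them higher and 1 lower with YQSHJD, as for 55.3% of all genes tested, 30.7% higher and 24.6% lower. The median log2 difference of the tested members was 0.25, beside 0.04 over all genes tested.

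**Figure D1:**
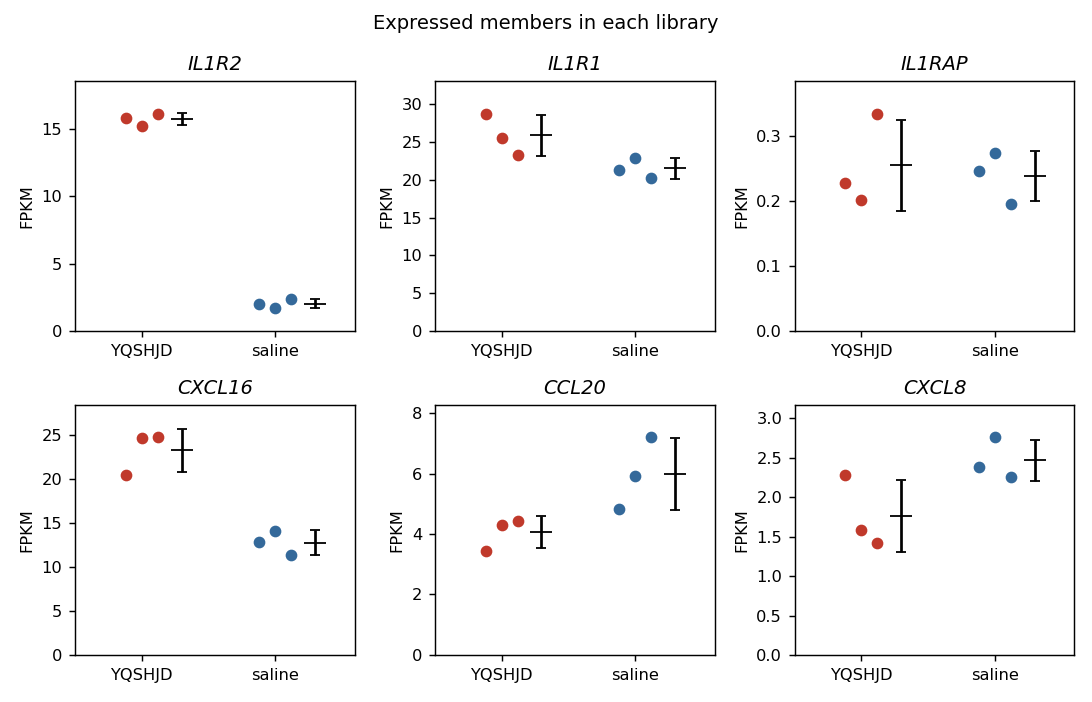
Level of the 6 members with reads in every library, in FPKM on linear axes that start at 0 and differ between panels. Points are libraries 1 to 3 of YQSHJD (left, red) and saline (right, blue), and the black mark beside each group is the mean with its SD (n = 3). The groups lie far apart for IL1R2, at 15.2 to 16.1 FPKM with YQSHJD and 1.71 to 2.39 FPKM with saline, and overlap for IL1RAP and CXCL8.

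Among the receptors, IL1R2 (ENSG00000115590) changed by far the most. The deposited table places it at chr2:101991960-102028544 on the plus strand. Its level was 15.8, 15.2 and 16.1 FPKM in YQSHJD 1, 2 and 3, resting on 604, 537 and 662 reads, and 2.04, 1.71 and 2.39 FPKM in saline 1, 2 and 3, resting on 92, 78 and 116 reads. Every YQSHJD library was high and every saline library low, with a wide gap between them and little spread within either group. The means were 15.7 ± 0.448 FPKM with YQSHJD and 2.05 ± 0.34 FPKM with saline (SD, n = 3 each). The log2 difference was 2.46, SE 0.11, with a 95% interval of 2.22 to 2.70 (limma, adjusted p = 2.42e-06). Counting IL1R2 itself, only 21 of the 10966 genes tested, 0.192%, had a log2 difference this large or larger in the same direction. IL1R2 was called under all 19 alternative settings, at 2.28 to 2.95.

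IL1R1 (ENSG00000115594, chr2:102064544-102179874, plus strand), the receptor that signals, was the most abundant member. It stood at 28.7, 25.5 and 23.3 FPKM in YQSHJD 1, 2 and 3, against 21.3, 22.9 and 20.2 FPKM in saline 1, 2 and 3. The lowest YQSHJD library lay just above the highest saline library, so the groups did not overlap but nearly touched. The means were 25.8 ± 2.69 FPKM with YQSHJD and 21.5 ± 1.36 FPKM with saline (SD, n = 3 each). The log2 difference of 0.25, SE 0.10, with a 95% interval of 0.02 to 0.49, missed the threshold (limma, adjusted p = 0.0783), and it turned to -0.10 when levels were rescaled to TPM. After GC correction it was 0.04 (limma, adjusted p = 0.659), or 0.05 relative to the median of all genes. It passed in 2 of 19 alternatives, at 0.32 without YQSHJD 3 (limma, adjusted p = 0.0363) and at 0.21 with array weights, which weight libraries by how well they match their group (limma, adjusted p = 0.00634). The array weights were 11.854 for YQSHJD 2 and 0.171 for YQSHJD 1, and their estimate stopped before convergence. With them 67.3% of all genes tested were called, beside 41.4% as reported, so calls with array weights carry little weight. The antisense gene IL1R1-AS1 overlaps 7254 bases of this locus and was listed at 0 throughout.

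Within each library, the ratio of the decoy to the signalling receptor was therefore far apart between the groups. IL1R2 stood at 0.552, 0.596 and 0.690 of the IL1R1 level in YQSHJD 1, 2 and 3, against 0.0958, 0.0748 and 0.118 in saline 1, 2 and 3. This ratio does not depend on how libraries are scaled, and its mean was 6.37-fold higher with YQSHJD (exact permutation p = 0.1, two-sided, the smallest that 3 against 3 libraries allow). IL1R2 made up 22.3%, 21.3% and 22.9% of the FPKM summed over the 10 members in the YQSHJD libraries, and 4.69%, 3.6% and 5.49% in the saline libraries. IL1R1 made up 33.1% to 40.4% of that sum with YQSHJD and 46.4% to 48.9% with saline.

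The co-receptor IL1RAP (ENSG00000196083, chr3:190514051-190659750, plus strand) was scarce in all libraries and below the level needed for the test. It had 0.228, 0.202 and 0.334 FPKM in YQSHJD 1, 2 and 3, from 33, 27 and 52 reads, and 0.246, 0.273 and 0.196 FPKM in saline 1, 2 and 3, from 42, 47 and 36 reads. YQSHJD 3 lay above and saline 3 below all other libraries, and the rest overlapped. The means of 0.255 ± 0.0697 FPKM with YQSHJD and 0.238 ± 0.0389 FPKM with saline did not differ beyond the spread (SD, n = 3 each, exact permutation p = 0.8). Its level was about 0.0101 of that of IL1R1 with YQSHJD and 0.011 with saline.

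IL1R2 and IL1R1 lie at one end of a block of 6 protein-coding IL-1 receptor family genes that spans 461 kb. IL1RL2, IL18R1 and IL18RAP in this block were listed at 0 in every library. IL1RL1, the receptor for interleukin-33, had 92, 83 and 63 reads in YQSHJD 1, 2 and 3 and was listed at 0 in all 3 saline libraries. That is 1.24, 1.21 and 0.788 FPKM in YQSHJD 1, 2 and 3, too low for the test, and with no filter on low values its log2 difference was 1.05 (limma, adjusted p = 0.00464). IL1R2 and IL1RL1 were thus higher with YQSHJD, and IL1R1, which lies between them, was not called. IL1RL1 and IL18R1 overlap on the plus strand, at chr2:102311502-102352037 and chr2:102311529-102398777 as deposited. Counting could share or drop reads there, so the values of IL1RL1 and IL18R1 may not be separate measurements. The neighbour beside IL1R2, the kinase gene MAP4K4, had 34.0, 31.5 and 32.2 FPKM with YQSHJD and 38.8, 43.6 and 40.0 FPKM with saline, a fall of 0.31 on the log2 scale (limma, adjusted p = 0.0197). That call was kept in 15 of 19 alternatives. It was lost with no filter, with the replicate number as a block, and without YQSHJD 2 or saline 2.

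**Figure D2:**
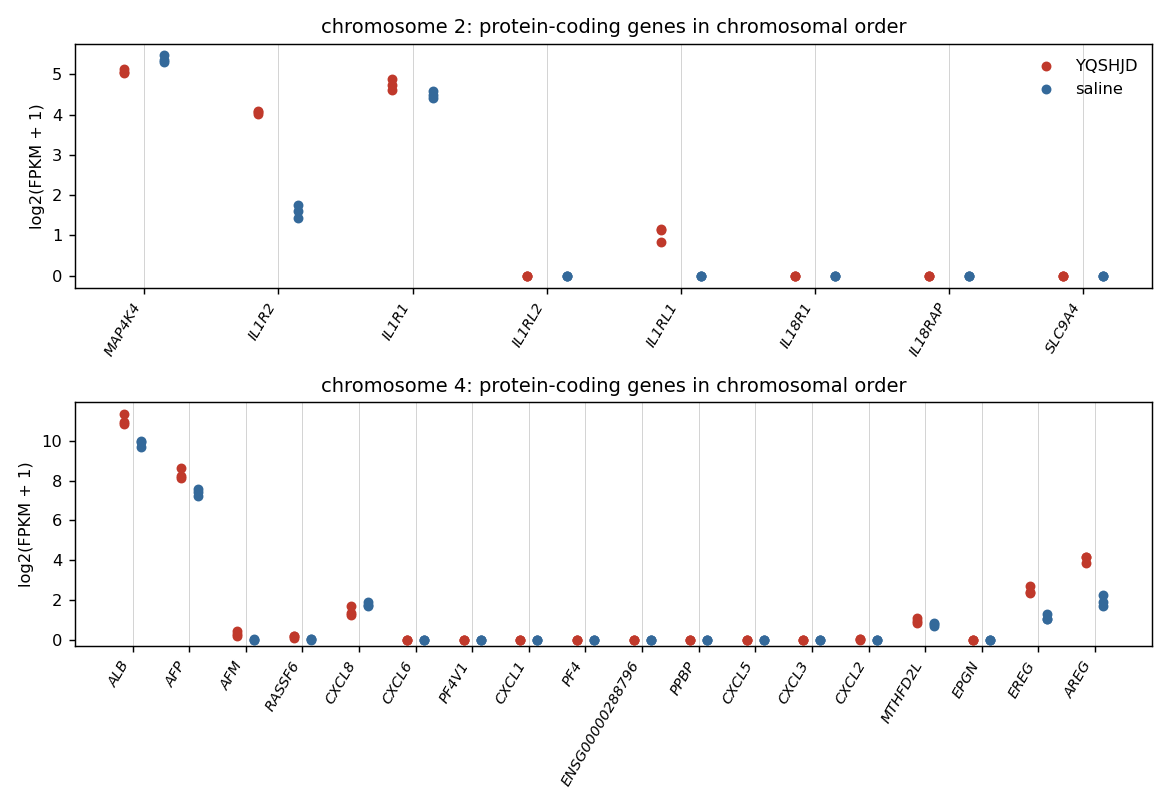
Levels as log2(FPKM + 1) of protein-coding genes in chromosomal order, evenly spaced, for the IL-1 receptor block of chromosome 2 (top) and the chemokine block of chromosome 4 (bottom), with their neighbours. Each point is 1 library of YQSHJD (red, left) or saline (blue, right). In the top panel IL1R2 and IL1RL1 are separated between the groups, and in the bottom panel the genes from CXCL6 to CXCL2 lie at or next to 0, while ALB, AFP, EREG and AREG farther out are higher with YQSHJD.

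Among the chemokine members, the membrane-bound CXCL16 (ENSG00000161921, chr17:4733533-4739928, minus strand) was the most abundant and the member that rose. It had 20.4, 24.6 and 24.7 FPKM in YQSHJD 1, 2 and 3, from 736, 820 and 960 reads, and 12.8, 14.1 and 11.3 FPKM in saline 1, 2 and 3, from 543, 604 and 517 reads. All YQSHJD libraries were above all saline libraries, with YQSHJD 1 nearest to them. The means were 23.3 ± 2.45 FPKM with YQSHJD and 12.7 ± 1.38 FPKM with saline (SD, n = 3 each), a log2 difference of 0.82, SE 0.11, with a 95% interval of 0.56 to 1.08 (limma, adjusted p = 0.000853). It was called under all 19 alternative settings, with TPM rescaling giving the smallest value, 0.50. The ends of CXCL16 overlap MED11 by 76 bases and ZMYND15 by 96 bases on the other strand. No source used here gives the strand setting of the counting, so reads there may be shared. MED11, a subunit of the Mediator complex, stood at 6.62, 6.88 and 8.14 FPKM with YQSHJD and 5.74, 5.86 and 6.99 FPKM with saline, and ZMYND15 at no more than 7 reads.

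CX3CL1 (fractalkine), the other chemokine made as a stalked membrane protein, moved the opposite way. It had 13.2, 16.2 and 17.9 FPKM in YQSHJD 1, 2 and 3, against 40.1, 36.7 and 34.5 FPKM in saline 1, 2 and 3, so that all YQSHJD libraries were low. The log2 difference was -1.19, SE 0.12 (limma, adjusted p = 0.000187), and it was called under all 19 alternatives. The level of CXCL16 was 1.54, 1.52 and 1.38 times that of CX3CL1 in YQSHJD 1, 2 and 3, and 0.319, 0.383 and 0.327 times in saline 1, 2 and 3, without overlap (exact permutation p = 0.1, the smallest possible). CXCL16 was thus above CX3CL1 in every YQSHJD library and below it in every saline library.

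CCL20 (ENSG00000115009, chr2:227805739-227817564, plus strand) was the member that fell. It had 3.45, 4.31 and 4.42 FPKM in YQSHJD 1, 2 and 3, from 71, 82 and 98 reads, and 4.82, 5.91 and 7.2 FPKM in saline 1, 2 and 3, from 117, 145 and 188 reads. The highest YQSHJD library lay below the lowest saline library, and the saline libraries were spread more widely. The means were 4.06 ± 0.53 FPKM with YQSHJD and 5.98 ± 1.19 FPKM with saline (SD, n = 3 each), a log2 difference of -0.45, SE 0.14, with a 95% interval of -0.78 to -0.13 (limma, adjusted p = 0.033). The call was kept in 13 of 18 alternatives that could test it. It was lost with no filter on low values (adjusted p = 0.122) and without YQSHJD 1 (-0.36, adjusted p = 0.0558), YQSHJD 2 (-0.49, adjusted p = 0.0587), saline 2 (-0.45, adjusted p = 0.0837) or saline 3 (-0.33, adjusted p = 0.11), all by limma.

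CXCL8 (ENSG00000169429, chr4:73740519-73743716, plus strand), interleukin-8, had 76, 49 and 51 reads in YQSHJD 1, 2 and 3, which is 2.28, 1.59 and 1.42 FPKM, and 94, 110 and 96 reads in saline 1, 2 and 3, which is 2.38, 2.76 and 2.26 FPKM. YQSHJD 1 lay within the saline range and the other YQSHJD libraries below it, so the groups overlapped. The log2 difference of -0.34, with a 95% interval of -0.65 to -0.03, was not called (limma, adjusted p = 0.0721). It was called in 5 of 18 alternatives that could test it, among them without YQSHJD 1, at -0.47 (limma, adjusted p = 0.00672). CXCL8 stood at 0.449 ± 0.183 of the CCL20 level with YQSHJD and 0.426 ± 0.0969 with saline, which did not differ beyond the spread (SD, n = 3 each, exact permutation p = 0.8). By contrast CXCL16 stood at 5.92, 5.71 and 5.59 times the CCL20 level in YQSHJD libraries and at 2.65, 2.38 and 1.57 times in saline libraries (exact permutation p = 0.1).

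The other neutrophil chemokines gave next to no reads. CXCL1 (ENSG00000163739, chr4:73869393-73871308, plus strand), CXCL3 (ENSG00000163734, chr4:74036589-74038807, minus strand) and CXCL5 (ENSG00000163735, chr4:73995642-73998677, minus strand) were listed at 0 in all 6 libraries. CXCL2 (ENSG00000081041, chr4:74097040-74099196, minus strand) had 1 read in each of YQSHJD 2 and YQSHJD 3, and was listed at 0 elsewhere. Coding sequences of CXCL1, CXCL2 and CXCL3 are 90.7% to 94.4% identical, so counting could split or drop reads among them, and their summed reads were 0, 1 and 1 in YQSHJD 1, 2 and 3 and 0 in each saline library. The coding sequence of CXCL8 is only 51.6% identical to that of CXCL1. A value of 0 in this table need not mean absence, since RPS9 and VARS1, which every cell uses, were also listed at 0 in every library. The 5 genes with GGAATTTCC in their promoter window thus comprised 3 listed at 0, CXCL2 with 2 reads in all and CXCL8 with up to 110 reads.

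Of the 10 protein-coding genes in the 359 kb from CXCL8 to CXCL2 on chromosome 4, 8 were listed at 0 in every library, among them CXCL6, PF4 and PPBP, which are also CXC chemokines. Farther out on both sides lie genes that rose. Albumin (ALB) on the CXCL8 side had 2605.2, 1966.0 and 1798.9 FPKM with YQSHJD and 830.9, 978.4 and 1011.3 FPKM with saline (log2 difference 1.16; limma, adjusted p = 0.000499). AREG, an epidermal growth factor receptor ligand on the CXCL2 side, had 16.7, 17.0 and 13.7 FPKM with YQSHJD and 2.8, 3.76 and 2.27 FPKM with saline (log2 difference 2.10; limma, adjusted p = 3.4e-05). CXCL8, which lies between them, had a difference in the other direction that was not called.

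By level, the order with YQSHJD was IL1R1, CXCL16, IL1R2, CCL20, CXCL8, IL1RAP and CXCL2, in FPKM, which rests on the deposited gene lengths. The ranges of IL1R1 and CXCL16 overlapped there, and those of the next pairs down to IL1RAP did not. With saline the order was IL1R1, CXCL16, CCL20, CXCL8, IL1R2 and IL1RAP, and the ranges of CXCL8 and IL1R2 overlapped. IL1R2 was thus the fifth member with saline and the third with YQSHJD. The 10 members summed to 70.4 to 71.6 FPKM with YQSHJD and 43.6 to 47.6 FPKM with saline. FPKM summed over all genes was also higher with YQSHJD, so this difference is partly that of the whole table.

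**Figure D3:**
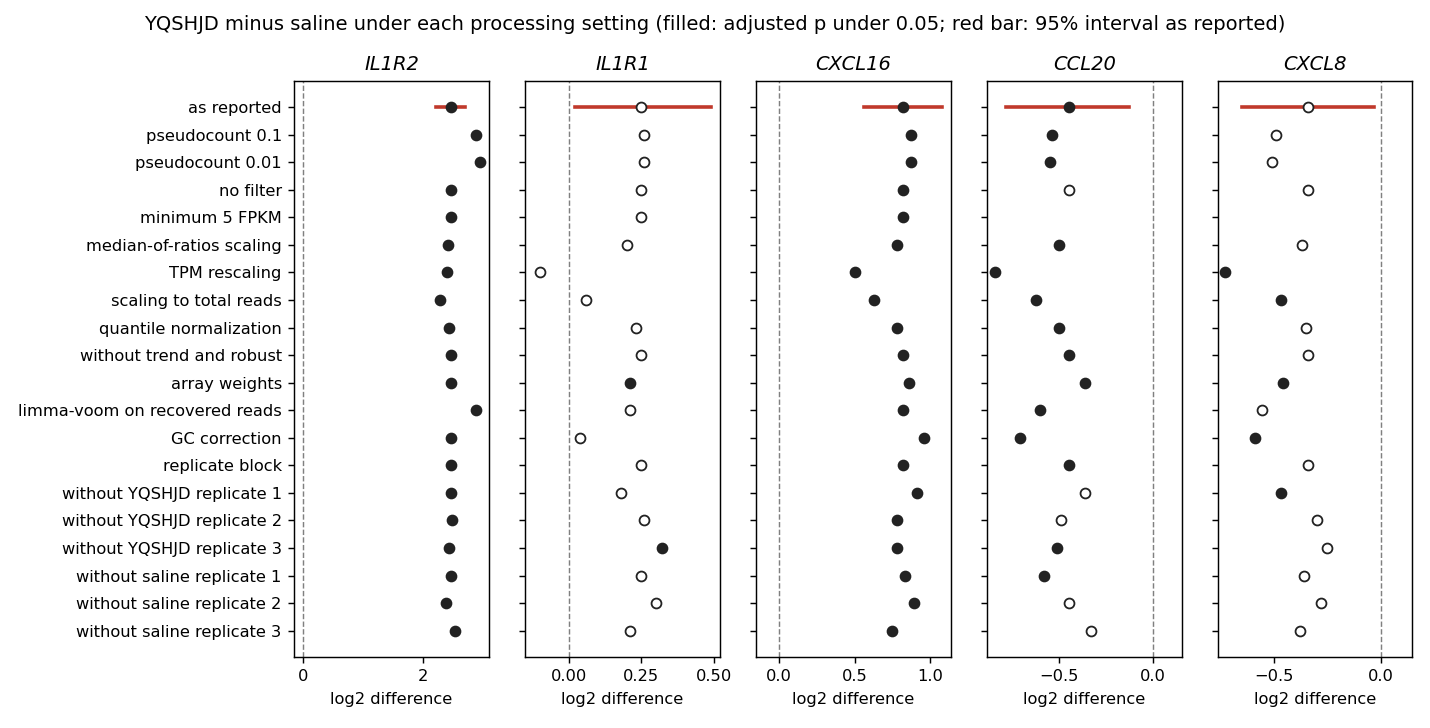
Log2 difference, YQSHJD minus saline, of the 5 tested members as reported (top) and under each alternative setting (below), with a scale of its own for each gene. Filled points have an adjusted p under 0.05, the red bar is the 95% interval as reported, and the dashed line marks 0. IL1R2 and CXCL16 are filled throughout, IL1R1 crosses 0 under TPM rescaling at -0.10, and CCL20 and CXCL8 stay below 0 in every setting that tested them.

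Partners of the members were mostly scarce. CXCR1 and CXCR2, the receptors of CXCL8, were listed at 0 in every library. CXCR6, the receptor of CXCL16, had 0, 3 and 1 reads in YQSHJD 1, 2 and 3, and CCR6, the receptor of CCL20, had 2, 2 and 0, while both were listed at 0 in the saline libraries. Of 23 chemokine receptors, 2 were tested and both were called higher, the scavenging receptor ACKR2 and CCR7, each at a log2 difference of 0.37. Among all genes tested 23.3% were called higher. ACKR2 was called in 10 of 18 alternatives and CCR7 in 6 of 18, and neither was called with no filter, under TPM rescaling or scaling to total reads, or without YQSHJD 3, saline 1, saline 2 or saline 3. The ligand IL1A had 4, 1 and 1 reads with YQSHJD and 1, 4 and 4 with saline. IL1B had 4 reads in YQSHJD 1 and was listed at 0 elsewhere. The natural antagonist IL1RN had 13, 8 and 29 reads with YQSHJD and 30, 38 and 43 with saline, from 0.18 to 0.559 FPKM with YQSHJD and 0.527 to 0.703 FPKM with saline, which overlap. It was below the test, and with no filter its log2 difference of -0.30 was not called (limma, adjusted p = 0.24). None of the 11 other IL-1 family ligands was tested.

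Of 37 other chemokines 3 were tested, with 26 listed at 0 in every library. Beside CX3CL1, CCL26 (eotaxin-3) was higher, with 12, 13 and 12 reads in YQSHJD 1, 2 and 3 and 1, 2 and 0 in saline 1, 2 and 3, a small number on which its log2 difference of 1.12 rests (limma, adjusted p = 0.000275). CCL16, a chemokine made in liver, was called higher at 1.37 (limma, adjusted p = 0.0461) although its groups overlapped, and only 5 of 18 alternatives called it. In the IL-1 receptor family, SIGIRR and the interleukin-18 binding protein IL18BP were tested and neither was called, at -0.47 and -0.18. SIGIRR was called lower in 4 of 19 alternatives, with array weights, under TPM rescaling (-0.86; limma, adjusted p = 0.0383), with scaling to total reads (-0.63; adjusted p = 0.0409) and by limma-voom (-0.62; adjusted p = 0.0266), and was at -0.08 after GC correction. IL18BP was called in 1 of 18, with array weights.

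Downstream of the receptor, 19 of 21 signalling genes were tested, of which 6 were higher and 4 lower. Of all genes tested, 23.3% were higher and 18.0% lower. The median of the signalling genes was 0.02 on the log2 scale, beside 0.04 over all genes. The split of the signalling genes depends on scaling. It was 1 higher and 8 lower after TPM rescaling and 4 higher and 5 lower after scaling to total reads. With no filter, and also without saline 2, it was 3 higher and 2 lower, and without saline 1 it was 4 higher and 2 lower. TAB3, an adaptor of the kinase TAK1, had 5.25 ± 0.83 FPKM with YQSHJD and 2.68 ± 0.0817 FPKM with saline (SD, n = 3 each; log2 difference 0.76; limma, adjusted p = 0.00121). CHUK, the IkappaB kinase alpha subunit, was higher by 0.54 on the log2 scale but was not called after TPM rescaling (limma, adjusted p = 0.00538 as reported and 0.0927 after rescaling). NFKBIA, the inhibitor of NF-kappaB that is itself an NF-kappaB target, was lower in each YQSHJD library, at 32.0, 36.5 and 33.2 FPKM, than in any saline library, at 60.8, 55.8 and 55.6 FPKM (log2 difference -0.74; limma, adjusted p = 0.000425). The adaptor MYD88 averaged 29.6 ± 1.11 FPKM with YQSHJD and 23.4 ± 0.991 FPKM with saline (SD, n = 3 each; log2 difference 0.32; limma, adjusted p = 0.0158), and this turned to -0.03 after TPM rescaling. The call of MYD88 was kept in 12 of 19 alternatives and lost, among others, without YQSHJD 2, saline 1, saline 2 or saline 3. The kinase IRAK1 did not pass, at 66.1 ± 14.6 FPKM with YQSHJD and 59.4 ± 2.73 FPKM with saline (SD, n = 3 each; log2 difference 0.13; limma, adjusted p = 0.535). It was called higher with GC correction (0.41; limma, adjusted p = 0.00149), with array weights and without YQSHJD 1, and turned to -0.23 under TPM rescaling and -0.07 with scaling to total reads.

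Of 9 proteases that release or trim these proteins, 4 were tested, 2 of them higher and 1 lower. Among all genes tested the shares were 23.3% higher and 18.0% lower. DPP4, which cuts the amino end of many chemokines, had 18.6, 15.9 and 15.5 FPKM in YQSHJD 1, 2 and 3 and 7.38, 8.62 and 9.42 FPKM in saline 1, 2 and 3, without overlap (log2 difference 0.90; limma, adjusted p = 0.000557). ADAM17, a sheddase, was higher at 0.35 (limma, adjusted p = 0.0267) but in only 9 of 18 alternatives. ADAM10, the other main sheddase of CXCL16 and CX3CL1, was not called, at 0.03 (limma, adjusted p = 0.835).

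All 10 genes that control chemokine mRNA were tested, 1 of them higher and 5 lower, and their median was -0.24 on the log2 scale. Beside them, 23.3% of all genes tested were higher and 18.0% lower, with a median of 0.04. HNRNPD, which binds AU-rich elements as AUF1, had 16.6, 16.3 and 16.2 FPKM in YQSHJD 1, 2 and 3 and 26.2, 24.9 and 25.9 FPKM in saline 1, 2 and 3, so that all YQSHJD libraries were low (log2 difference -0.62; limma, adjusted p = 0.000616). KHSRP, another protein that speeds decay of such mRNAs, was lower, at -0.56 on the log2 scale (limma, adjusted p = 0.011), a call lost with no filter and without saline 1. Also lower were ELAVL1 and ZFP36L2, each at -0.38, and MAPKAPK2 at -0.40 (limma, adjusted p = 0.0176, 0.0242 and 0.00873). The list was not split by whether a gene speeds or slows decay. The gene that was higher was ZC3H12A, an RNase known as regnase-1, at 0.33, a call kept in 6 of 18 alternatives and lost, among others, without YQSHJD 2, YQSHJD 3 or any saline library. The number lower was 6 after TPM rescaling, 2 with no filter and without saline 1, and 3 without saline 2.

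Of 12 acute phase genes listed, 6 were tested, with 2 higher and 3 lower, a median of -0.38. Over all genes tested 23.3% were higher and 18.0% lower, with a median of 0.04. Whether the acute phase genes answer IL-1 in these cells was not tested, so they are no measure of IL-1 signalling. The complement gene C3 had 137.7, 154.4 and 161.2 FPKM in YQSHJD 1, 2 and 3 and 403.0, 367.2 and 343.3 FPKM in saline 1, 2 and 3, without overlap (log2 difference -1.29; limma, adjusted p = 3.92e-05). Haptoglobin (HP) averaged 4.74 ± 0.516 FPKM with YQSHJD and 10.5 ± 1.55 FPKM with saline (SD, n = 3 each; log2 difference -1.0; limma, adjusted p = 0.000473). SERPINA3, the antichymotrypsin, was lower at -0.72 (limma, adjusted p = 0.0108), a call lost with no filter. ORM1 and ORM2, the orosomucoids, were higher at 0.28 and 0.40, and neither was called higher after TPM rescaling, scaling to total reads or quantile normalization, or without saline 1. The 2 higher became 1 without YQSHJD 2, YQSHJD 3 or saline 2. The same held with no filter, median-of-ratios scaling, no trend and robust prior, limma-voom or the replicate block. In all, ORM1 was called in 7 of 19 alternatives and ORM2 in 15 of 19. ORM1 and ORM2 are close paralogs, so their separate values are uncertain.

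**Figure D4:**
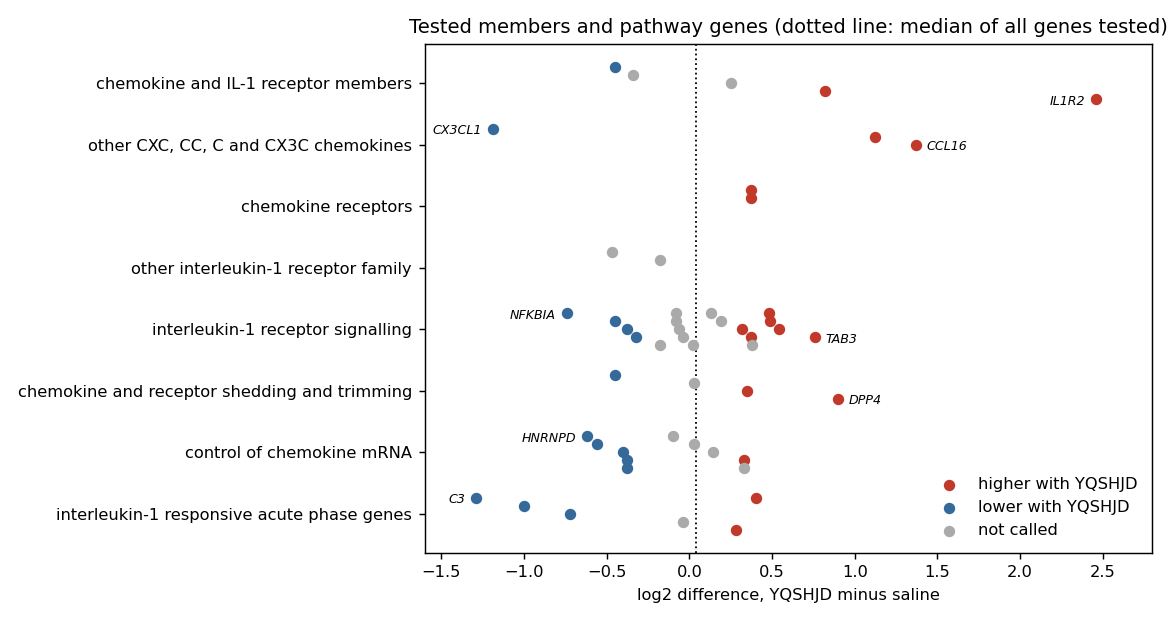
Log2 difference, YQSHJD minus saline, of each tested gene in the members and in 7 lists of pathway genes, listed from top to bottom. Red points were called higher, blue points lower and grey points were not called, and the dotted line is the median of all genes tested, 0.04. IL1R2 at 2.46 lies farthest to the right, and C3 at -1.29 and CX3CL1 at -1.19 farthest to the left.

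The protein-coding genes whose levels followed IL1R2 most closely over the 6 libraries were MYO5B, a myosin motor, ABHD4, a lipase, and UMPS, an enzyme of pyrimidine synthesis. Pearson's r of log2(FPKM + 1) with IL1R2 was 0.9996, 0.9996 and 0.9992 in that order, among 9571 protein-coding genes tested. The libraries form 2 separate groups, so these values mostly describe a shared gap between the groups. ABHD4, for example, had 41.8, 40.9 and 42.9 FPKM in YQSHJD 1, 2 and 3 and 11.6, 10.9 and 12.1 FPKM in saline 1, 2 and 3.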

How the data were processed

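Libraries were made from polyadenylated RNA with an Illumina TruSeq kit, per the labels' protocols, and the submitters' processing notes name CASAVA 2.19. The values are FPKM, deposited by the authors as 1 table with 62709 genes. No source used here gives the aligner, counter, strand setting, build or annotation. Of the gene identifiers 58273 were in GENCODE 29 (GRCh38), 88.8% of them with the same start or end, and coordinates are printed as deposited. The table held 6 further columns of values that match no sample and were not used. FPKM times gene length gave whole reads for 100% of values within 0.01 reads. The depth implied by the FPKM values was 0.885 to 0.923 of the recovered total with YQSHJD and 1.027 to 1.049 with saline; no source used here gives the reason.

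limma 3.58.1 in R 4.3.3, with trend and robust prior, was fitted across all 10966 genes that reached 1 FPKM in 3 or more libraries with a pseudocount of 1. Log2 differences with this pseudocount make changes of low genes look smaller, and folds are ratios of mean FPKM. Single values were compared with exact permutation tests. The members and lists were chosen with earlier results of these data known. Of the lists, genes were named when called with an absolute log2 difference of at least 0.5 and no overlap, up to 5 a list, with 11 genes named whatever their values and the 3 genes most like IL1R2. Other genes are named as examples, chosen after their values were seen. Alternatives were no filter, a minimum of 5 FPKM, pseudocounts of 0.1 and 0.01, 4 other scalings (median of ratios, TPM, total reads, quantile), no trend and robust prior, array weights, limma-voom on recovered reads, a GC correction (loess span 0.5, GC known for 98.6% of genes), the replicate number as a block, and leaving out each library.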

Additional observations from a re-analysis of the deposited data

How the results depend on the processing

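IL1R2 and CXCL16 were called higher under all 19 alternatives, CCL20 was lower in direction under all 18 that tested it, and IL1R1 turned to -0.10 under TPM rescaling. The median log2 difference of all genes was 0.04 as reported, -0.29 under TPM rescaling and -0.13 with scaling to total reads, and relative to it IL1R1 stood at 0.21, 0.19 and 0.19 in that order, but at 0.05 after GC correction. Members called lower numbered 1 as reported, 0 with no filter and with a minimum of 5 FPKM, where CCL20 and CXCL8 were not tested, and 2, with CXCL8, under TPM rescaling, scaling to total reads, array weights and GC correction. Leaving out 1 library gave 2 to 3 members higher and 0 to 1 lower, with 0 lower without YQSHJD 2, saline 2 or saline 3.

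Over all genes, 2559 were higher and 1977 lower as reported. Those higher numbered 1606 with no filter, 888 under TPM rescaling, 1408 with scaling to total reads and 4142 with array weights. Those lower numbered 4650 under TPM rescaling, 3240 with scaling to total reads and 3236 with array weights, whose estimate stopped before convergence. Leaving out 1 library gave 1588 to 2675 higher and 1217 to 2188 lower, the lowest of each without saline 1. The cause of these shifts was not tested. Same-numbered libraries had correlations of -0.245, -0.112 and -0.04 in their deviations from the group mean, and other pairs had -0.166 to 0.211. Within a group of 3 libraries these deviations depend on each other, so the correlations cannot show whether the samples were paired. With the replicate block, 2018 genes were higher and 1689 lower, and 2 members were higher and 1 lower. IL1RAP, with 27 to 52 reads in a library, is imprecise at this depth, and why genes are listed at 0 was not tested.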
